A study of Mus musculus with 8 samples.

Results

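The genes described here are those that encode the subunits of the integrins and the laminins in mouse, taken from the gene table of immortalized mouse embryonic fibroblasts (MEFs) with and without the protein SLMAP3. They were chosen by symbol alone, without use of any measured value, as every Itga gene, every Itgb gene from Itgb1 to Itgb8 and every Lama, Lamb and Lamc gene. This gave 37 of the 55401 genes listed, which are 18 integrin alpha genes, 8 integrin beta genes and 11 laminin genes. The lines were isolated from B6C3F1 embryos at E14.5, 4 of them SLMAP3-/- and 4 wild type (WT), and RNA of each line was sequenced once from a stranded mRNA library. In the SLMAP3-/- animals, floxed exon 3 of Slmap was removed by a Cre recombinase under the CMV promoter, so the gene was lost from the whole embryo and not from 1 cell type. All 8 lines carried SV40 large T antigen, which inactivates the p53 and retinoblastoma proteins, so the comparison is between immortalized lines and not between primary fibroblasts. The sources do not say that the lines of a genotype came from separate embryos, so p-values measure the spread between these lines. The names of SLMAP3-/- line 3 and WT line 4 in the count table share a number whose meaning is not given, and a common origin of this pair was not tested.

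Integrins are the receptors by which cells hold their surroundings. Each is a pair of one alpha and one beta subunit, the alpha subunit largely sets which ligand is bound, and the beta tail is tied to actin through talin, kindlin and other adaptors at focal adhesions. Laminins are trimers of one alpha, one beta and one gamma chain, which assemble with collagen IV, nidogen and perlecan into basement membranes. Fibroblasts are known for fibronectin and collagen receptors, and they also secrete laminin chains although most of them do not sit on a basement membrane.

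The authors deposited 1 estimated count for each gene and line, and the totals ran from 49879059 to 63322486 per line. Values per line are given in CPM, the gene's share of its library on the usual CPM scale after edgeR's TMM scaling, and the replicate numbers of the labels name the lines. Slmap itself had 44.3, 32.7, 36.3 and 39.7 CPM in SLMAP3-/- lines 1 to 4 and 124, 139, 143 and 141 CPM in WT lines 1 to 4, and its estimate on the log2 scale was -1.84 (standard error 0.11, with 0.00119 as the adjusted p in edgeR's quasi-likelihood test). The genotypes therefore matched their labels, although a count over all exons does not single out the deleted one. The fibroblast markers Col1a1, Col1a2, Vim, Pdgfrb and Col3a1 were high in every line, although Dcn was low (0.323 to 14.8 CPM), and the 8 fibroblast markers summed to between 10233 and 12453 CPM in SLMAP3-/- lines and between 11528 and 14499.7 CPM in WT lines. Leukocyte markers summed to at most 6.26 CPM, with Ptprc at 0 to 9 counts, and epithelial markers summed to at most 2.13 CPM. Endothelial markers summed to between 16.6 and 40.5 CPM in SLMAP3-/- lines and between 9.47 and 27.5 CPM in WT lines. Almost all of the highest sum came from Kdr and Tek, while Cldn5 was at 0 and Pecam1 at 0 to 12 counts in the 8 lines. In edgeR, 1 of 2 tested endothelial markers was higher in SLMAP3-/- lines at an unadjusted p under 0.05, against 1.81% of all genes. By the same measure 1 of the 8 fibroblast markers was lower, and no marker of either list passed after adjustment. Markers of platelets, skeletal muscle and Schwann cells summed to at most 6.64, 0.493 and 5.20 CPM, with Myod1 at 0 in every line.

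Of the 37 genes, 30 passed edgeR's filter on low counts, which asks for about 10 counts in enough libraries, beside 15461 of all genes. They were 14 of 18 integrin alpha genes, 6 of 8 integrin beta genes and 10 of 11 laminin genes. The other 7 were Itgae, Itgal, Itgam, Itgax, Itgb2, Itgb6 and Lamc3, which stayed at or below 25 counts in every line. Statements on tests below cover only the 30.

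**Figure D1:**
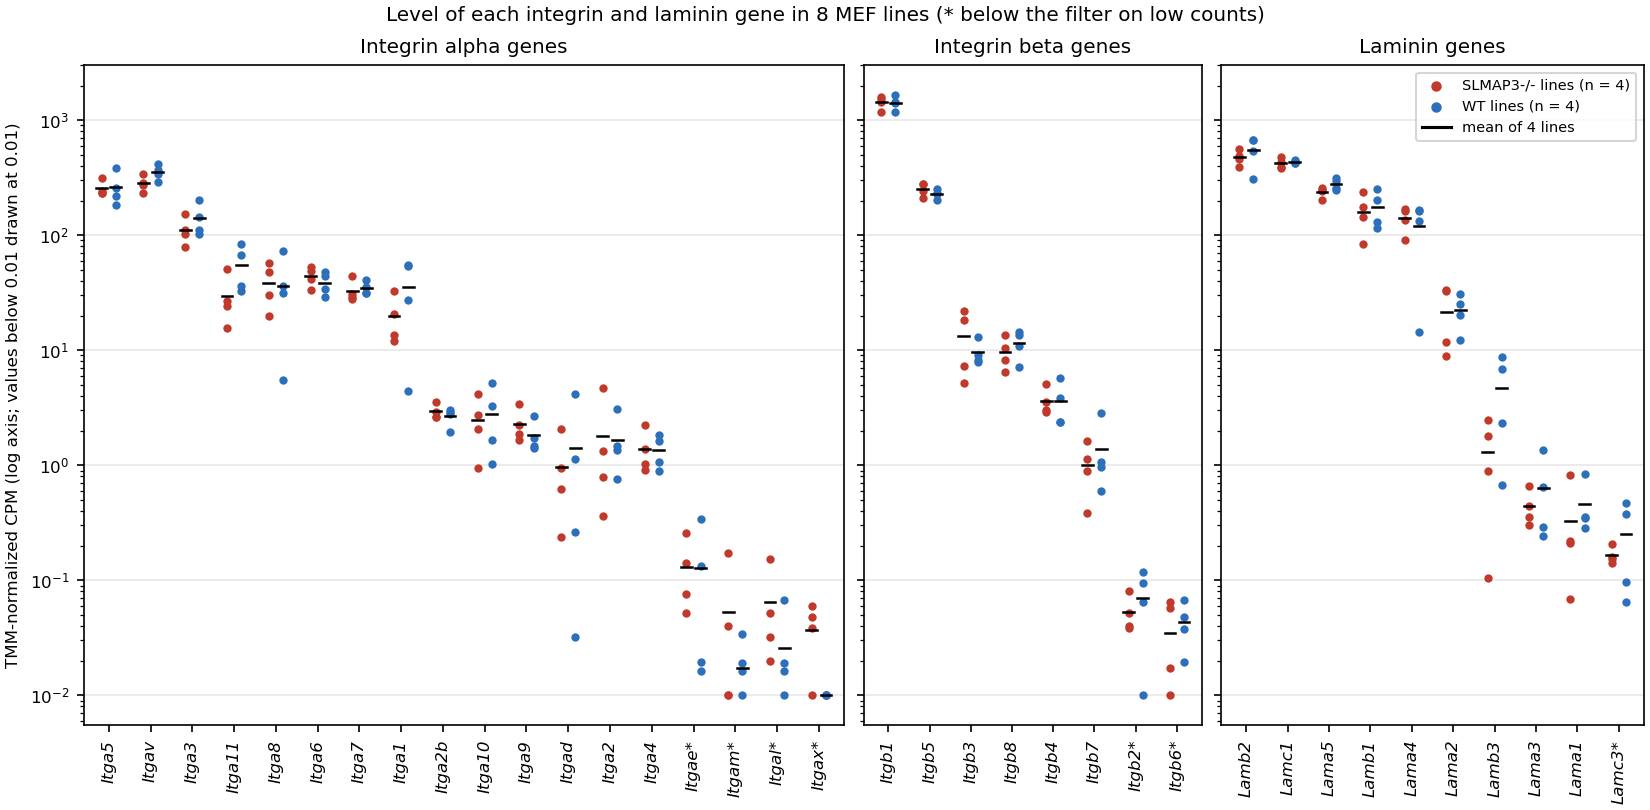
TMM-normalized CPM (log axis) of 36 of the 37 integrin alpha, integrin beta and laminin genes in 4 SLMAP3-/- lines (red points) and 4 WT lines (blue points), with a black bar at the mean of the 4 lines, and genes in the order of their mean level per kb. Itgb1 lay between 1169 and 1647 CPM in all 8 lines, the genes of leukocyte integrins marked with a star lay near the bottom of the axis, and the red and blue points of every gene shown past the filter overlapped.

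To compare levels between genes, CPM was divided by the length of all exons of the gene, and each subunit was expressed as a percent of the summed CPM per kb of its pool, for example of all integrin beta genes. Among the integrin alpha genes, Itga5 held 40.4% ± 4.61 of the pool (SD, n = 8 lines), Itgav 22.9% ± 3.10 and Itga3 16.8% ± 3.54. These encode the α5 subunit of the fibronectin receptor, the αv subunit of the vitronectin and fibronectin receptors, and the α3 subunit, which binds laminin. Itga11 followed with 6.24% ± 2.93, Itga8 with 3.99% ± 2.13, Itga6 with 3.57% ± 0.615, Itga7 with 3.27% ± 0.570 and Itga1 with 1.21% ± 0.907. Neighbours among Itga11, Itga8, Itga6 and Itga7 differed by less than their spread between lines, and Itga6 and Itga7 moved above Itga11 when the longest transcript replaced the exon length. The order of the leading 3 alpha genes was the same with both lengths.

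Itgb1 dominated the beta subunits. It encodes β1, the common partner of most alpha subunits outside leukocytes and platelets, and held 82.9% ± 2.67 of the integrin beta pool (SD, n = 8 lines), while Itgb5, a partner of αv, held 16.2% ± 2.34. Itgb3, which pairs with αv and with the platelet subunit αIIb, held 0.467% ± 0.263. Among the laminin alpha genes Lama5 held 65.6% ± 12.1 and Lama4 30.3% ± 12.2, and Lama2, the alpha chain of muscle and nerve basement membranes, held 3.83% ± 1.75. Lamb2 made up 81.9% ± 8.93 of the laminin beta pool and Lamb1 17.6% ± 8.71. Lamc1, the gamma chain of most laminins, made up 97.9% ± 0.80 of the gamma pool. By these levels the leading chains were those of laminins with α5 or α4, β2 or β1, and γ1. With the longest transcript in place of the exon length, Lama5 held 50.6% and Lama4 44.2% in the mean of the lines. By that length Lama4 reached 59.9% in SLMAP3-/- lines, where Lama5 reached at most 54.8%. In WT lines Lama5 lay between 42.1% and 88.0% and Lama4 between 7.63% and 52.6%. The lead of Lama5 over Lama4 therefore depended on the length that was used and did not hold in every line.

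**Figure D2:**
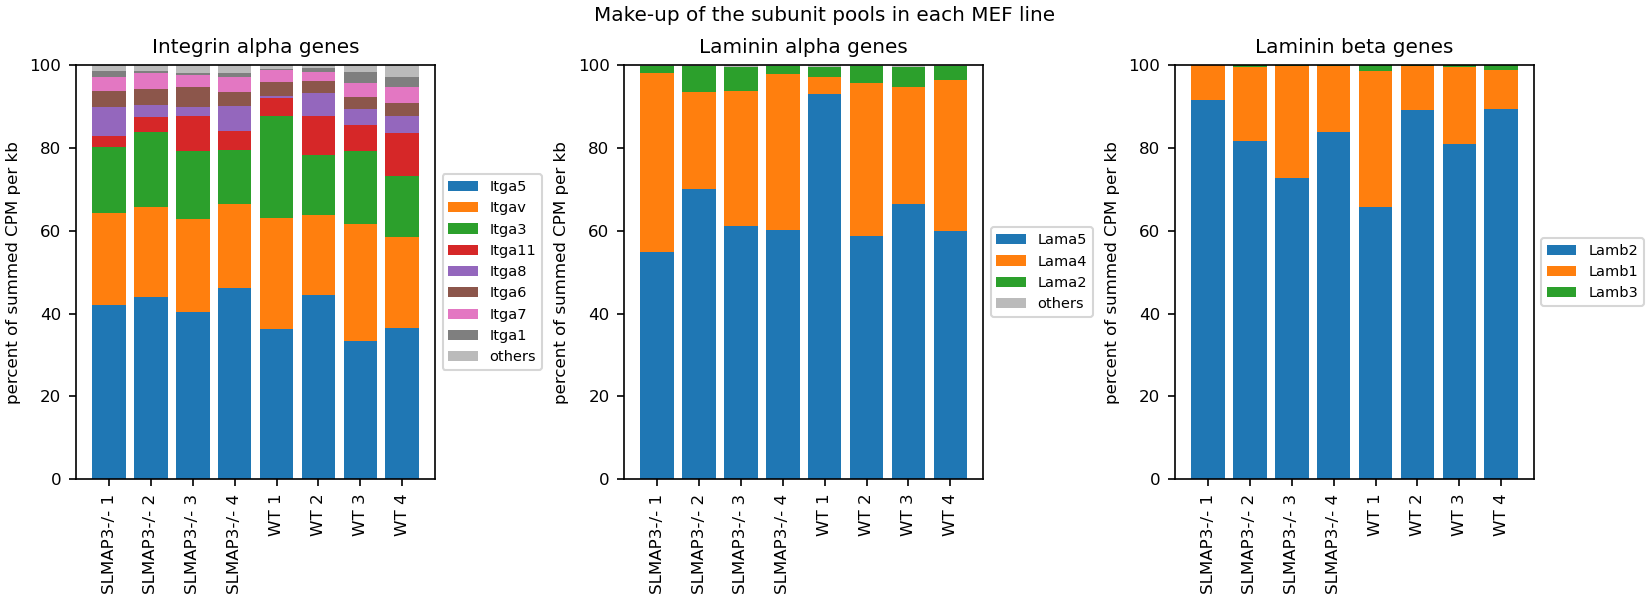
Percent of the summed CPM per kb that each gene took in the pools of integrin alpha, laminin alpha and laminin beta genes, with 1 bar for each of the 8 MEF lines. Itga5, Itgav and Itga3 filled most of every alpha bar, and WT line 1 stood apart with 93.1% Lama5 and 4.04% Lama4.

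Some of these genes are neighbours in the genome without sharing a level. Itga2 (114833081 to 114932100) and Itga1 (114953096 to 115101964) are side by side on chromosome 13, with 0.243 ± 0.204 and 1.47 ± 1.02 CPM per kb (SD, n = 8 lines). Itgam, Itgax and Itgad lie in a row on chromosome 7 between 128062640 and 128223816, where Itgam and Itgax stayed at or below 9 counts in every line and Itgad reached 247.

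Sequence before 1 or more transcript starts listed by RefSeq (GRCm38.p6) was examined for 23 of the 37 genes, in 26 windows of 250 bases. No window of the other genes, Lama3 among them, was examined, which does not mean that RefSeq lists no start for them. A listed start can lie inside the gene, and 15 windows reached past the outermost start in the annotation (GENCODE M21), 7 of them with all 250 bases, among these the windows of Itga9, Itgb8, Lama2 and Lamb3. In all, 13 windows held bases of exons of their own gene, so the values over the 26 windows are not all of upstream sequence. The other 11 windows, of 11 genes, lay wholly before the gene. CpG pairs were counted in each window. The 22 windows of genes past the filter on low counts had a median of 10.5 CpG (0 to 22), and the 10 of them wholly before the gene had a median of 15 (2 to 21), against a median of 6 over all 32851 windows of the genome, which were not sorted in this way. The 4 windows of genes below the filter had a median of 5.5 (3 to 11). Motifs were searched on both strands as plain letters, with N for any base. The windows of the integrin and laminin genes held GGGCGG, the core of the SP1 site, in 34.6% of the 26 and 54.5% of the 11, against 32.7% of all windows. TATAAA was in 0 of the 26 and in 12.4% of all windows. The TEAD core GGAATG was in 11.5% of the 26 and 18.2% of the 11, against 12.6% of all windows, and the AP-1 motif TGANTCA in 3.85% of the 26 and 0 of the 11, against 6.75%. The letters of 5 windows are printed 5′ to 3′ on the strand of the gene, with each CG in capitals. Itgb1 (chr8:128685404-128685653, plus strand) and Lama5 (chr2:180225860-180226109, minus strand) are shown as the leading integrin beta and laminin alpha genes by exon length, with 21 and 19 CpG. Itga1 (chr13:115101965-115102214, minus strand) and Itga8 (chr2:12301945-12302194, minus strand) are shown because both were lowest in the same line, WT line 1, and have 10 and 18 CpG. Itgax (chr7:128129300-128129549, plus strand) stands for the leukocyte integrins near 0 and has 5 CpG. Of these 5 windows, that of Itgax alone reaches into its gene, with its last 3 bases in an exon, and it is the 1 window of the 26 that held TGANTCA.
Itgb1: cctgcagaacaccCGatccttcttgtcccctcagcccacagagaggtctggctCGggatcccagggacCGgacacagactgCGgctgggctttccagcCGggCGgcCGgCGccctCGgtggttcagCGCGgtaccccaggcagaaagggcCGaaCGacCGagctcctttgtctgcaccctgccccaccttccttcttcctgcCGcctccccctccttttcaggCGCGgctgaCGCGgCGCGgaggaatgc
Lama5: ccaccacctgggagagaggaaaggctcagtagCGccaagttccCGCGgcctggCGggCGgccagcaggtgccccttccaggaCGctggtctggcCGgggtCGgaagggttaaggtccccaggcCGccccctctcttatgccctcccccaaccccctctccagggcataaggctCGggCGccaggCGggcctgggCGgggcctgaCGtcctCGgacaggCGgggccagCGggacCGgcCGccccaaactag
Itga1: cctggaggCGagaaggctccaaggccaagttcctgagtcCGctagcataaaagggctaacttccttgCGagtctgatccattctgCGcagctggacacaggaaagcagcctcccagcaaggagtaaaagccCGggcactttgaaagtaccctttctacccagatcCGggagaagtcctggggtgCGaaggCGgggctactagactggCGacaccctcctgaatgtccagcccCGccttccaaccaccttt
Itga8: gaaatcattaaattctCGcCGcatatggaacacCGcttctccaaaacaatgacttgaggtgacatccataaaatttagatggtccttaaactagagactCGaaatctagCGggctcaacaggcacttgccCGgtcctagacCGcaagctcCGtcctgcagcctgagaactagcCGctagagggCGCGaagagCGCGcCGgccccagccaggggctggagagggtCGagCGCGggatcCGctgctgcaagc
Itgax: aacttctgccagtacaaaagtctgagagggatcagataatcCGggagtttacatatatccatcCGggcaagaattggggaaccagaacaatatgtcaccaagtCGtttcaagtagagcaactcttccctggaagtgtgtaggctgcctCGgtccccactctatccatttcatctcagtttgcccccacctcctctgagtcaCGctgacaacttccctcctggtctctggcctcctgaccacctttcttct

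Whether loss of SLMAP3 altered the expression of these subunits was asked by comparing the 4 SLMAP3-/- with the 4 WT lines, since SLMAP3-/- MEFs were examined for cell shape and focal adhesions. None of the 30 genes tested passed an adjusted p of 0.05 in edgeR's quasi-likelihood test, against 1 gene, Slmap, among all 15461 (0.00647%). At an unadjusted p under 0.05 the number was also 0 of 30, against 1.81% of all genes (0.964% higher and 0.847% lower in SLMAP3-/- lines), and in limma-voom it was 0 of 30, against 1.74%. In DESeq2, run without that filter on all 37, none passed after adjustment, against 0.0325% of all genes, and 2 were lower with an unadjusted p under 0.05, against 1.63%. These were Lamb3 and Itga11, with DESeq2 p-values of 0.0275 and 0.0302 before adjustment and 1.00 after it. In none of the 30 genes did the 4 SLMAP3-/- lines lie all on one side of the 4 WT lines, which 1.25% of all genes did. In SLMAP3-/- lines 11 of the 30 genes had a higher and 19 a lower estimate, 63.3% lower against 50.5% of all genes, with a median log2 fold change of -0.10 against -0.0014. The sizes of the estimates had a median of 0.21 on the log2 scale, against 0.10 over all genes, and only Lamb3 was beyond a log2 fold change of 1 (3.33% against 2.74% of all genes). The test leaves room for differences of unequal size. The 95% interval of the log2 fold change lay within a 2-fold change in either direction for 15 genes, among them Itgb1, Itgb5, Itga5, Itgav, Itga3, Itga6, Itga7, Lama5, Lamb1, Lamb2 and Lamc1. For the other 15 it reached beyond a 2-fold change, so the interval did not exclude a change of that size. Each library pools the RNA of a whole culture, in which fewer cells of a type and less RNA per cell cannot be told apart.

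**Figure D3:**
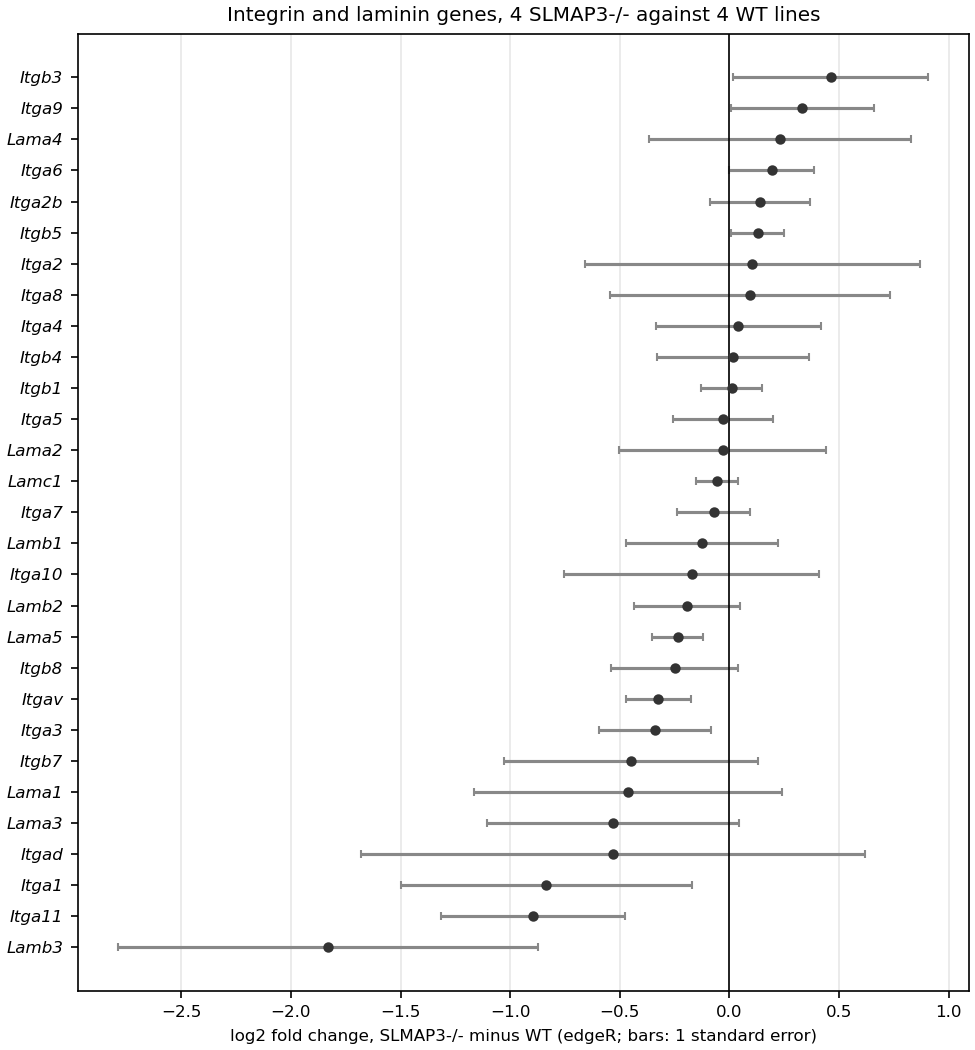
The log2 fold change of SLMAP3-/- against WT lines (n = 4 each) from edgeR for 29 of the 30 integrin and laminin genes past the filter, with bars of 1 standard error, positive values being higher in SLMAP3-/- lines. The points of Itgb1 and Lamc1 sat close to 0 with short bars, and Lamb3 sat lowest at -1.83 with a bar of 0.96.

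The β1 gene kept a narrow range. Itgb1 (ENSMUSG00000025809.15) spans 128685654 to 128733200 of chromosome 8 in GRCm38. Itgb1 had 1444, 1528, 1169 and 1576 CPM in SLMAP3-/- lines 1 to 4, and 1451, 1647, 1179.6 and 1398 CPM in WT lines 1 to 4. Its lowest lines, SLMAP3-/- line 3 and WT line 3, came from both genotypes and the ranges overlapped almost fully. The log2 fold change was 0.01 (standard error 0.14, 95% interval -0.31 to 0.33, adjusted p = 1.00 in edgeR). Itgb5, whose product pairs with αv, had 209, 277, 278 and 240.2 CPM against 229.9, 232, 202 and 254 CPM in WT lines (log2 fold change 0.13, standard error 0.12). Itgb3 was more uneven, with 5.21, 18.2, 22.0 and 7.36 CPM in SLMAP3-/- lines and 13.1, 8.30, 7.87 and 9.03 CPM in WT lines. The SLMAP3-/- lines held both the highest and the lowest value of Itgb3, and its estimate of 0.46 (standard error 0.45) was the highest among the 30 genes. Itgb8, the other αv partner, lay between 6.49 and 14.4 CPM. Itgb4, the hemidesmosome subunit that joins α6, had 2.99, 3.56, 5.04 and 2.90 CPM in SLMAP3-/- lines and 2.35, 2.40, 3.86 and 5.73 CPM in WT lines, with the WT lines at both ends.

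Among alpha subunits that recognise the RGD motif of fibronectin and vitronectin, Itga5 had 234, 317, 234 and 242 CPM in SLMAP3-/- lines and 258, 387, 183 and 221 CPM in WT lines. SLMAP3-/- line 2 stood above the other SLMAP3-/- lines, WT lines held both extremes, and the log2 fold change was -0.03 (standard error 0.23). Itgav (ENSMUSG00000027087.11), on chromosome 2 from 83724397 to 83806916, had 271, 340.0, 282 and 234 CPM in SLMAP3-/- lines, and 418, 366, 339 and 290.2 CPM in WT lines. The highest SLMAP3-/- line of Itgav, line 2, lay above WT lines 3 and 4, so the ranges overlapped between 290.2 and 340.0 CPM. Its log2 fold change was -0.33 (standard error 0.15, 95% interval -0.66 to 0.01), with the lowest p of the 30 genes, 0.0570 before and 1.00 after adjustment in edgeR, and an exact two-sided permutation p of 0.0857 where 4 lines against 4 cannot give less than 0.0286. Itga8, whose product binds nephronectin and is required for kidney outgrowth, had 57.2, 30.1, 19.7 and 47.6 CPM in SLMAP3-/- lines and 5.53, 72.2, 31.2 and 36.1 CPM in WT lines. WT line 1 was the lowest of all 8 and WT line 2 the highest, and the log2 fold change was 0.09 (standard error 0.64). Itga2b, the αIIb subunit of platelets, kept between 1.93 and 3.55 CPM in every line, while the sum of the 5 platelet markers lay between 1.89 and 6.64 CPM.

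The laminin-binding alpha subunits were present in every line. Itga3 had 102, 152, 110.5 and 79.7 CPM in SLMAP3-/- lines and 202, 144, 112 and 103 CPM in WT lines. WT line 1 was the highest and SLMAP3-/- line 4 the lowest, the other 6 lines overlapped, and the log2 fold change was -0.34 (standard error 0.26). Itga6 ranged from 29.3 to 53.2 CPM with its highest value in SLMAP3-/- line 2, and Itga7, the muscle laminin receptor subunit, from 27.9 to 44.1 CPM.

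Collagen-binding alpha subunits varied far more. Itga11 (ENSMUSG00000032243.8), on chromosome 9 from 62677826 to 62783982, encodes the alpha subunit of a fibroblast receptor for fibrillar collagen and had 15.7, 26.7, 51.3 and 24.5 CPM in SLMAP3-/- lines and 32.7, 84.4, 36.0 and 66.9 CPM in WT lines. Its lowest 3 lines were all SLMAP3-/-, but SLMAP3-/- line 3 lay above WT lines 1 and 3. The log2 fold change of Itga11 was -0.90 (standard error 0.42, 95% interval -1.85 to 0.06), with p = 0.0628 before and 1.00 after adjustment in edgeR and an exact permutation p of 0.143. Itga1 had 32.6, 13.5, 12.0 and 20.5 CPM in SLMAP3-/- lines and 4.45, 27.1, 55.3 and 53.7 CPM in WT lines. Both the lowest and the highest values of Itga1 were WT, so the estimate of -0.84 had a standard error of 0.66. Without WT line 1 the estimate for Itga1 was -1.20, with an adjusted p of 0.999 in edgeR (0.0167 before adjustment). Itga2 had 0.796, 4.72, 1.32 and 0.364 CPM in SLMAP3-/- lines and 0.758, 1.47, 1.36 and 3.09 CPM in WT lines, with both extremes in SLMAP3-/- lines. Itga10, the chondrocyte collagen receptor subunit, lay between 0.952 and 5.20 CPM, and 33.5% of its exon bases are shared with the same-strand gene Gm42957, so its counts are uncertain.

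The α4 and α9 subunits, which bind fibronectin splice forms, VCAM1 and tenascin, were low. Itga9 had 3.41, 1.86, 2.23 and 1.67 CPM in SLMAP3-/- lines and 1.42, 1.72, 1.46 and 2.69 CPM in WT lines, with its highest value in SLMAP3-/- line 1. Itga4 lay between 0.884 and 2.22 CPM, and the genotypes overlapped for both genes.

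Most integrin genes of leukocytes were near 0 in these cells, and the leukocyte markers were low. Itgal had 0 to 8 counts and Itgam 0 to 9 counts per line. Itgb2, their beta partner, had 0 to 7 counts, and Itgae, of mucosal T cells, had 1 to 20 counts. Itgax had 0, 3, 3 and 2 counts in SLMAP3-/- lines 1 to 4 and 0 in all 4 WT lines, where a count of 0 allows up to 3 counts in a library by counting error alone. Itgb6, the epithelial αv partner, had 0 to 4 counts. Itgb7, the beta subunit of lymphocyte homing receptors, passed the filter with 0.381, 1.64, 0.884 and 1.13 CPM in SLMAP3-/- lines and 2.87, 0.600, 1.06 and 0.969 CPM in WT lines, highest in WT line 1. Itgad also passed it, with 0.952, 0.240, 0.627 and 2.07 CPM in SLMAP3-/- lines and 0.0323, 1.12, 0.265 and 4.20 CPM in WT lines. WT lines held its lowest value, 2 counts in WT line 1, and its highest, 247 counts in WT line 4, a 130.2-fold range that was the widest of the 30 genes. Itgam shares 68.7% of its exon bases with Gm49368 on the same strand.

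Laminin genes fell into abundant and scarce ones as well. Lama5 had 203, 257, 240.0 and 247 CPM in SLMAP3-/- lines and 316, 245, 297 and 256 CPM in WT lines. SLMAP3-/- line 1 was the lowest and WT line 1 the highest, the other 6 lines lay between 240.0 and 297 CPM with the genotypes mixed, and the log2 fold change was -0.24 (standard error 0.12, p = 0.0770 before and 1.00 after adjustment in edgeR, exact permutation p = 0.143). Lama4 (ENSMUSG00000019846.11), on chromosome 10 from 38965515 to 39110188, encodes the alpha chain of vessels and mesenchyme and had 169.6, 91.5, 135 and 163 CPM in SLMAP3-/- lines and 14.55, 163, 134 and 166 CPM in WT lines. WT line 1 lay far below the other 7 lines, and the estimate of 0.23 (standard error 0.60) became -0.14 without it. Lama2 had 8.85, 33.2, 32.9 and 11.8 CPM in SLMAP3-/- lines and 12.2, 25.2, 30.9 and 20.4 CPM in WT lines, with both extremes in SLMAP3-/- lines. Lama1, the alpha chain of the early embryo, and Lama3, that of epithelia, stayed below 1 CPM in all lines except Lama3 in WT line 3, with 1.36 CPM. Lama1 had 0.0692, 0.220, 0.819 and 0.211 CPM in SLMAP3-/- lines and 0.839, 0.348, 0.284 and 0.357 CPM in WT lines, so that SLMAP3-/- line 3 and WT line 1 stood above the rest.

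Of the beta chains, Lamb2 had 566, 488, 394 and 464 CPM in SLMAP3-/- lines and 305, 667, 539 and 677 CPM in WT lines. WT line 1 was lowest, the other 3 WT lines lay within or above the SLMAP3-/- range, and the log2 fold change was -0.20 (standard error 0.24). Lamb1 went the other way in that line, with 250.3, 131, 202 and 117 CPM in WT lines against 83.5, 176, 239 and 143 CPM in SLMAP3-/- lines, WT line 1 being the highest and SLMAP3-/- line 1 the lowest. Lamb3 (ENSMUSG00000026639.18), on chromosome 1 from 193207699 to 193343878, encodes the β3 chain of epithelial laminin and was scarce, with 0.104, 2.48, 0.884 and 1.78 CPM in SLMAP3-/- lines and 6.84, 0.677, 2.33 and 8.81 CPM in WT lines. WT lines 1 and 4 were the highest, WT line 2 lay below 3 of the SLMAP3-/- lines, and SLMAP3-/- line 1 had 6 counts. The log2 fold change of Lamb3 was -1.83 (standard error 0.96, 95% interval -4.01 to 0.35), with p = 0.0897 before and 1.00 after adjustment in edgeR and an exact permutation p of 0.200.

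Lamc1 varied least of all 30 genes. It had 388, 387, 431 and 478 CPM in SLMAP3-/- lines and 423, 454, 426 and 446 CPM in WT lines, a 1.24-fold range over the 8 lines, and the log2 fold change was -0.05 (standard error 0.10, 95% interval -0.27 to 0.16). Lamc3 had 4 to 25 counts per line.

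Lines of 1 genotype differed more among themselves in integrin and laminin genes than in the median gene. The SD of log2 CPM within genotypes had a median of 0.52 over the 30 genes against 0.28 over all 15461, and 23 of the 30 lay above the latter. The highest line exceeded the lowest by more than 2-fold in 22 of 30 genes (73.3% against 40.9% of all genes) and by more than 10-fold in 7 of 30 (23.3% against 7.96%). These 7 were Itga1, Itga2, Itga8, Itgad, Lama1, Lama4 and Lamb3, and Lamb3 alone had an 84.8-fold range. Without WT line 1 the number fell to 4, which were Itga2, Itgad, Lama1 and Lamb3, against 6.40% of all genes, and without SLMAP3-/- line 1 it was 6, against 7.19%. Low counts add counting error to the range of genes such as Itgad and Lama1, whose lowest lines had 2 and 4 counts, but Itga1, Itga8 and Lama4 had at least 276 counts in every line.

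A pair of lines, 1 of each genotype, held most of the low values. SLMAP3-/- line 1 was the lowest of the 8 lines for 11 of the 30 genes, and WT line 1 for 8, where they were lowest for 11.5% and 17.9% of all genes. The genes of SLMAP3-/- line 1 included Itga10, Itga11, Itgb3, Itgb7, Itgb8, Lama1, Lama2, Lama5, Lamb1 and Lamb3. WT line 1 was lowest for Itga1, Itga8, Itga9, Itgad, Itgb4, Lama3, Lama4 and Lamb2, but it was also the highest for 6 genes, among them Itga3, Itgav, Lama5 and Lamb1. Other genes moved in WT line 1 as well. The fibroblast marker Pdgfra had 17.4 CPM there against 79.0 to 179 in the other lines, Npnt, which encodes the α8 ligand nephronectin, had 14.3 CPM there against 55.1 to 95.7, and the endothelial marker Tek had its lowest value there, 1.55 CPM. The part of these differences in the values of the integrin and laminin genes was not tested.

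**Figure D4:**
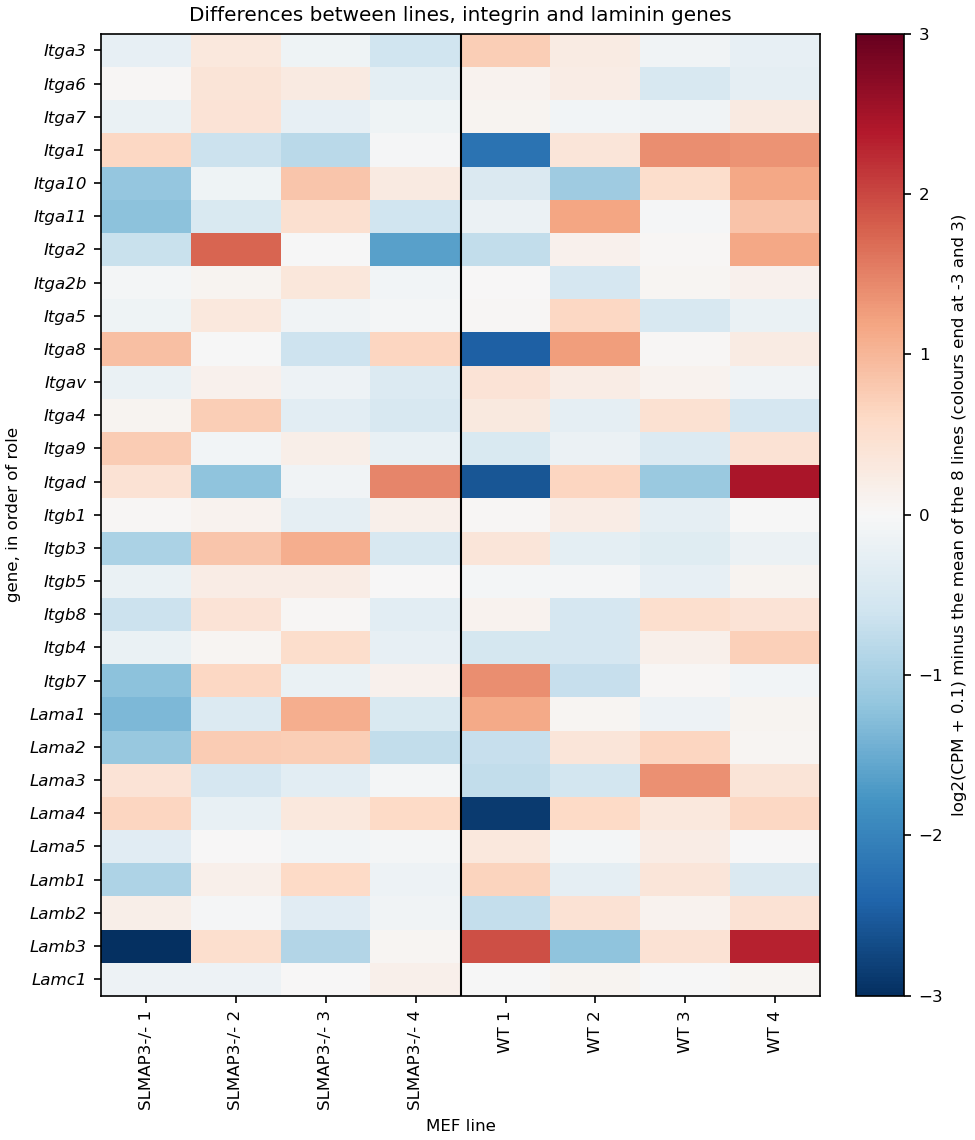
Colour map of log2(CPM + 0.1) of 29 of the 30 integrin and laminin genes past the filter in each of the 8 MEF lines, as the difference from the mean of the 8 lines, with blue for lower and red for higher values and genes in order of role. The columns of SLMAP3-/- line 1 and WT line 1 hold most of the dark cells, such as Itga1, Itga8 and Lama4 in WT line 1 and Lamb3 in SLMAP3-/- line 1, and no row divides at the line between the genotypes.

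Since integrins and laminins are assembled from partners, the levels of partner genes were compared across the 8 lines in 26 known pairs with both genes past the filter. No pair passed after Benjamini-Hochberg adjustment over the 26 pairs, the lowest adjusted p being 0.392 for r by exact permutation. The correlation was positive in 16 of 26 pairs, with a median r of 0.14, the same as the median of 0.14 over all 435 pairs of the 30 genes. Itga5 and Itgb1, the subunits of the fibronectin receptor, had r = 0.75 (exact permutation p = 0.0332, adjusted p = 0.432) and rho = 0.79 (exact permutation p = 0.0279, adjusted p = 0.363). Without the 2 lines farthest from the median of Itga5 r was 0.63, and centred within genotypes 0.75. For Itgav, r was 0.06 with Itgb1, 0.29 with Itgb3, -0.12 with Itgb5 and 0.29 with Itgb8.

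The highest values came from pairs that are not partners, which are described here without a test because they were picked from 435. Itga3 and Itgav had r = 0.94 over the 8 lines and 0.90 without WT line 1. Itga8 and Lama4 had 0.91, which was 0.57 without WT line 1, and Itga1 and Lamb2 had 0.88, which was 0.74 without it. In all, 13 of the 435 pairs had r over 0.8, and not all of these were pairs of non-partners.

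The genes of proteins that work with integrins and laminins did not divide by genotype either. Only their RNA was measured, so the proteins themselves were not compared. Of 24 genes of adaptors and focal adhesion proteins, 22 were tested and 0 had an unadjusted p under 0.05 in edgeR or an adjusted p under 0.05 in DESeq2, with 15 higher and 7 lower estimates in SLMAP3-/- lines and a median log2 fold change of 0.05. The highest counts in this list were those of Flna, which crosslinks actin and binds beta tails, at 3084 ± 508 CPM in SLMAP3-/- and 2979 ± 545 in WT lines (SD, n = 4), and of the actin crosslinker Actn4, at 1121 ± 164 and 993 ± 237. Of 21 genes of ligands and basement membrane partners, 20 were tested and 0 had an unadjusted p under 0.05, with 9 higher and 11 lower estimates and a median of -0.02. Thbs1, the matrix protein thrombospondin, had 7356 ± 2029.5 CPM in SLMAP3-/- and 7759.9 ± 3230.3 in WT lines (SD, n = 4), and Fn1, fibronectin, the ligand of α5β1, had 6665 ± 1559.7 and 7632 ± 1169.8. Vtn, the vitronectin gene, had at most 1 count in any line. Of 12 genes of integrin-associated membrane proteins and other laminin receptors, all 12 were tested and 0 had an unadjusted p under 0.05, with 3 higher and 9 lower estimates and a median of -0.11. Cav1, the caveolae protein, had 763 ± 273 CPM in SLMAP3-/- and 785 ± 456 in WT lines (SD, n = 4), and Dag1, which encodes the laminin receptor dystroglycan, had 519 ± 43.6 and 515 ± 72.5. In none of these 54 genes did the genotypes lie apart, against the 1.25% of all genes given above. An unadjusted p under 0.05 in edgeR was found for 1.81% of all genes. Beside shares this low, 0 of 54 does not set these lists apart from all genes.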

How the data were processed

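RNA of 4 SLMAP3-/- and 4 WT immortalized MEF lines was measured, with 1 library per line, and the labels of the samples gave the genotype and replicate number. The authors assigned reads to the GRCm38 GENCODE M25 transcriptome with Salmon and deposited an estimated count for each gene and line, corrected for the length of transcripts but with no scaling between libraries. Versions and the strand setting of the counting are not given in the sources used here, so reads of a gene and an overlapping antisense gene may be joined. A second deposited table, with the fold changes and p-values of the authors' DESeq2 comparison, was not used.

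Rounding turned estimated counts into whole numbers, which entered edgeR 4.0.16 (R 4.3.3) with filterByExpr (minimum count 10), TMM and the quasi-likelihood test, without covariates, with Benjamini-Hochberg adjustment over the 15461 genes tested and a threshold of 0.05. Standard errors came from the log2 fold change and F statistic, and 95% intervals from the t distribution with the total degrees of freedom of that test. The prior count of log2 CPM was 2. Permutation tests were exact and two-sided, in Python 3.11.15 with scipy 1.17.1. Totals of 49879059 to 63322486 per line make counting error small beside the spread between lines for all but the scarce genes. No columns of the 8 lines were identical.

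All 37 genes entered the counts, medians and pools, and the values of 1 of them are not reported here. Values for every line are given for the gene of each role with the highest level per kb, the 5 genes with the widest ratio of highest to lowest line, genes with a line far from the others of its genotype, and others a result turns on. Exon lengths came from GENCODE M21 (GRCm38), which may differ from the authors' annotation. The companion lists and markers are textbook lists, of which the 2 highest genes were named. The members and lists were chosen with earlier results of these data known. Npnt and the neighbouring genes were named after their values were seen.

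Alternatives were DESeq2 1.42.0, limma-voom (limma 3.58.1), DESeq2 size factors, no filter, at least 10 counts in every library, a replicate block, leaving out each line in turn and, for levels, the longest transcript. The scripts' tests were tested on simulated data first. Of 200 genes changed 2-fold there, edgeR recovered 62 at an adjusted p under 0.05, with 3 false calls. DESeq2 recovered 112, with 48 false calls. Of 200 genes changed 4-fold, edgeR recovered 154. Replicate numbers were used to name the lines and for the replicate block. The shared number in the names of SLMAP3-/- line 3 and WT line 4 was not used, and all 8 lines were treated as unrelated.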

Additional observations from a re-analysis of the deposited data

Results flagged for a closer look

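A gap test within genotypes (Dixon's, 95% level, 4 lines) was applied to the 30 genes in both genotypes, which is 60 groups, and chance alone marks about 1 in 20 of them. It marked 2 lines. Itga5 had 317 CPM in SLMAP3-/- line 2, where the other 3 SLMAP3-/- lines lay between 234 and 242 CPM. Lama1 had 0.839 CPM in WT line 1, where the other 3 WT lines lay between 0.284 and 0.357 CPM, and SLMAP3-/- line 3 had a like value of 0.819 CPM.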

How the results depend on the processing

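No integrin or laminin gene passed an adjusted p of 0.05 under any alternative run, and none of the adaptor, ligand or associated genes did. Over all genes the number called was 1, with 11 in DESeq2, 0 with the replicate block and 1 when any line was left out. The number of integrin and laminin genes with an unadjusted p under 0.05 was 0 in edgeR, 2 in DESeq2, 3 in edgeR without a filter, 1 (Itgav) with the replicate block, and 0 to 3 when a line was left out. In the replicate block the edgeR p of Itgav was 0.0309 before adjustment and missed 0.05 after it. Without WT line 1 the genes under 0.05 before adjustment were Itga1, Itga11 and Lamb2, and without WT line 2 Lama5 and Lamb3. They were Itga11 without WT line 3, and Itgav without WT line 4 or without SLMAP3-/- line 2. Without SLMAP3-/- line 3 they were Itga11 and Lama1. In edgeR without a filter they were Lamb3, Itga11 and Itgax, of which Itgax had only 0 to 3 counts per line. Genes whose genotypes lay apart numbered 0 to 2 when a line was left out (Itgav and Itga7 without SLMAP3-/- line 2, against 2.71% of all genes, Itga11 and Lama1 without SLMAP3-/- line 3, against 3.15%, and Itgav without WT line 4, against 2.10%). The genes with over 10-fold between lines numbered 7 in all, 4 without WT line 1 and 6 without SLMAP3-/- line 1, which were alternatives chosen after seeing the data.

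The log2 fold change turned sign in limma-voom and with the replicate block for Itga5 (0.015 and 0.014), Itga2 (-0.35 and -0.23) and Itgad (0.68 and 0.32). Leaving out 1 line at a time gave ranges that crossed 0 for Itga5 (-0.17 to 0.22), Itgb7 (-0.78 to 0.20), Lamb1 (-0.39 to 0.10), Itga2 (-1.01 to 0.58), Lama4 (-0.14 to 0.44), Lama2 (-0.31 to 0.23), Itgb4 (-0.19 to 0.34), Lama3 (-0.80 to 0.16), Itga7 (-0.24 to 0.010), Itgb1 (-0.069 to 0.10), Itga8 (-0.26 to 0.68), Itga4 (-0.28 to 0.22), Lama1 (-1.46 to 0.015), Itgad (-1.21 to 1.05) and Itga10 (-0.54 to 0.32). The cause was not tested. Deviations of lines with the same number correlated with r from -0.16 to 0.19. Among the 4 SLMAP3-/- lines, 1 correlated best with the WT line of its own number. These values gave no sign of a pairing by number, which 4 lines per genotype are too few to exclude. The number that SLMAP3-/- line 3 and WT line 4 share in the count table was not tested as a pairing.

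The median log2 fold change of the integrin and laminin genes lay between -0.24 and -0.02, over the 27 to 37 of them that each alternative tested, so it is not a range for 1 set of genes. For Itgax, Itgam, Itgal, Itgb2 and Itgb6, with at most 9 counts in a line, depth limits what can be said.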

Other observations

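The share of Itga6 in the integrin alpha pool was the 1 of 37 shares that did not overlap between genotypes. It lay between 3.47% and 4.64% in SLMAP3-/- lines and between 2.92% and 3.37% in WT lines by exon length, and between 5.64% and 7.52% and between 4.63% and 5.43% by the longest transcript (two-sided exact permutation p = 0.0286 for both, the smallest that 4 lines against 4 can give, not adjusted for the 37 shares). The level of Itga6 itself overlapped between genotypes, and its log2 fold change was 0.19 (standard error 0.20). Full separation arises in a fraction of 0.0286 of all splits of 8 lines into 4 and 4, so 1 of 37 shares is near what chance alone gives. The share of Itga6 was picked out after its values were seen.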
